A study of Mus musculus with 32 samples.

Results

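Metallothioneins bind zinc in the cell, and a small set of transporters brings zinc across membranes. Here 7 genes of this system were followed among the 55421 genes of the deposited table: the metallothioneins Mt1 and Mt2, the importers Slc39a14 and Slc39a4, the exporters Slc30a1 and Slc30a10, and the transcription factor Mtf1. They were chosen by symbol, and all 7 were found. The samples were livers of 16 mice in 4 groups of 4: hepatectomy Mettl14 KO, hepatectomy Flox control, sham Mettl14 KO and sham Flox control, with KO and flox used below. Each liver gave an IP library, from fragments of total RNA bound by an antibody against m6A (methylated adenosine in mRNA). Each also gave an input library, made with an mRNA kit, so there were 32 libraries. METTL14 forms, with METTL3, the enzyme that writes m6A, and the comparisons ask what its loss does to the liver with and without hepatectomy. The animals were 71 to 77 days old. Beyond age, the labels give the replicates of a group only numbers and codes, so p-values measure the spread between these samples. The driver of the deletion, the sex, the strain and the time after surgery do not appear in the labels, so the cells in which Mettl14 was deleted are not known.

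Metallothioneins are small cysteine-rich proteins that hold zinc and copper, and the liver makes much of them under zinc load, glucocorticoids, interleukin 6 and surgery. MTF1 senses free zinc and binds metal response elements in the promoters of Mt1, Mt2 and Slc30a1. Proteins of the Slc39 (ZIP) family bring zinc into the cytosol, and proteins of the Slc30 (ZnT) family take it out, to the outside or into vesicles. In rats, liver zinc is known to rise after partial hepatectomy, together with metallothionein.

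The 16 IP libraries held 7133766 to 24297854 counts and the 16 inputs 8177784 to 12533931. Values are given as CPM, the count per 1000000 counts of the library, and a count of 0 allows up to 0.123 to 0.421 CPM in an IP library and 0.239 to 0.367 CPM in an input (3 counts). These limits cover counting error only, since these PCR-amplified reads carry no molecular identifiers and need not be separate molecules. IP and input libraries were made with different kits, the input with an mRNA kit and the IP from fragmented total RNA. Kit, kind of RNA and pull-down therefore cannot be told apart in a difference between them. A median of 11389 genes had at least 10 counts in an IP library, against 5289 in an input. Such genes numbered 5972 to 8273 in hepatectomy KO inputs, against 4460 to 4948 in hepatectomy flox inputs. Mettl14 itself had 0 counts in all 16 inputs and counts in 3 of 8 KO and 5 of 8 flox IP libraries, too few to check the genotypes. The liver identity of the samples was clear: the 13 hepatocyte markers found, of 14, summed to 84710 to 101400 CPM in the inputs. In the IP libraries of hepatectomised animals the same markers summed to 32280 to 84870 CPM in KO livers, against 87830 to 100800 CPM in flox livers. The 8 stellate cell markers summed to 617.5 to 862.9 CPM in hepatectomy KO IP libraries, against 212.7 to 388.7 CPM in hepatectomy flox ones. The 8 endothelial markers summed to 699.7 to 1105 CPM in hepatectomy KO IP libraries, against 411.9 to 550.7 CPM in hepatectomy flox ones, and the 8 Kupffer cell markers had medians of 748.0 and 380.2 CPM there, with overlap. In sham IP libraries the stellate markers summed to 210.3 to 798.2 CPM in KO, against 131.9 to 203.4 CPM in flox. The hepatocyte sum of sham KO IP libraries was 72000 to 107900 CPM, and that of hepatectomy KO inputs 84710 to 101400 CPM. None of these hepatocyte, endothelial, Kupffer or stellate markers was at 0 in all libraries of a kind. The shifts touch the IP comparisons between KO and flox, those of hepatectomy KO with sham KO, and IP against input in hepatectomy KO livers, and their part in those results was not tested. In bulk tissue, fewer cells of a type and less RNA per cell cannot be told apart.

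The 2 metallothionein genes lie next to each other on chromosome 8, both on the plus strand. Mt2 (ENSMUSG00000031762) spans 94172664 to 94173568 and Mt1 (ENSMUSG00000031765) spans 94179082 to 94180327, in the coordinates of the deposited table, whose build the labels do not name. Their promoters are shown because the 2 genes had similar ranks over the IP libraries and because such promoters are where MTF1 binds. Each is the 250 bases before the gene's start in RefSeq on GRCm38.p6, plus strand, chr8:94178839-94179088 for Mt1 and chr8:94172368-94172617 for Mt2. Capitals mark the core of the metal response element, searched as TGCACNC and TGCGCNC on both strands.
Mt1: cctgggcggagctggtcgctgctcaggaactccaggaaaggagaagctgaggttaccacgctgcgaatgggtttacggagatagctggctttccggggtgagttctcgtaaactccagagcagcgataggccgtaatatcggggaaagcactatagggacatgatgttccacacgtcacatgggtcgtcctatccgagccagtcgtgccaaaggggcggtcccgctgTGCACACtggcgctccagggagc
Mt2: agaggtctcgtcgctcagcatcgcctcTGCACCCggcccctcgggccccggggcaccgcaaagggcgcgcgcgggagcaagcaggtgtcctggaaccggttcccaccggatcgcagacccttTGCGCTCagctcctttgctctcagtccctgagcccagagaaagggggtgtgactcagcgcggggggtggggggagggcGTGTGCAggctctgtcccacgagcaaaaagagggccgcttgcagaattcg

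The Mt1 window held 1 match, TGCACAC, from 23 to 17 bases before the start. The Mt2 window held 3, among them TGCGCTC from 128 to 122 bases before the start and GTGTGCA, a match on the opposite strand, from 50 to 44 bases before it. The window of Slc30a1 held 1 match, that of Slc30a10 held 3, of which 2 overlap on opposite strands, and that of Mtf1 held 0. Promoters of Slc39a14 and Slc39a4 were not analysed here. Of 32851 RefSeq promoters, 21.4% held at least 1 match and 1.26% at least 3. A match describes these letters and is no measurement of binding. Bases after the RefSeq start or before the window were not searched, and other start sites of a gene were not considered. The counts are therefore those of the windows, and the Mt1 and Mt2 promoters can hold further elements outside them.

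Both metallothioneins were abundant. Over the 16 inputs Mt2 averaged 2412 ± 697 CPM per kb of gene model and Mt1 1825 ± 432 CPM per kb (SD). The highest of the other 5 genes, Slc39a14, had 46.9 ± 18.9 CPM per kb. Mt3 and Mt4, metallothioneins of brain and of squamous epithelium, averaged 0.011 and 0 CPM in the inputs and 0 and 0.0051 CPM in the IP libraries. In the inputs the spread of Mt1 within a group was small, with a coefficient of variation of 17 to 34%, against 18 to 76% in the IP libraries.

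In the inputs neither metallothionein passed a test between groups, and the spread of the animals covered the differences. Input Mt1 averaged 2007 ± 445 CPM in hepatectomy KO livers, 2353 ± 389 in hepatectomy flox, 2251 ± 459 in sham KO and 2485 ± 851 in sham flox (SD, n = 4 each). Input Mt2 averaged 1156 ± 386 CPM in hepatectomy KO livers, 1669 ± 322 in hepatectomy flox, 1399 ± 413 in sham KO and 1448 ± 489 in sham flox. The values overlapped between KO and flox and between hepatectomy and sham. The fitted KO minus flox difference after hepatectomy was -0.02 (SE 0.23) for Mt1 and -0.32 (SE 0.31) for Mt2 on the log2 scale, and hepatectomy minus sham in flox livers was -0.03 (SE 0.23) and 0.27 (SE 0.31). Between KO and flox after hepatectomy the median gene stood at 0.46, and at 0.11 among genes of at least 50 CPM. Relative to them Mt1 lay at -0.48 and -0.13, and Mt2 at -0.78 and -0.43. The edgeR quasi-likelihood test gave adjusted p-values over 8775 genes of 1 for the 4 fitted differences. Under that test 0 of 7 genes of the set passed the threshold of 0.05 in any of the 5 input comparisons, where it called 0.0342% of genes between KO and flox after hepatectomy, 0.0114% in sham livers, 0.0114% between hepatectomy and sham in KO, and 0% in flox and for the interaction. At an unadjusted p under 0.05 the count was 1 of 7, Slc39a4, between KO and flox after hepatectomy (14% of all genes), between hepatectomy and sham in flox (16.9%) and for the interaction (12.3%). It was 0 between KO and flox in sham livers (9.12% of all genes) and between hepatectomy and sham in KO (2.77%). DESeq2 called Slc39a4 in the same 3 comparisons, in which it called 12% of all genes between KO and flox, 15.3% between hepatectomy and sham and 13.8% for the interaction.

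**Figure D1:**
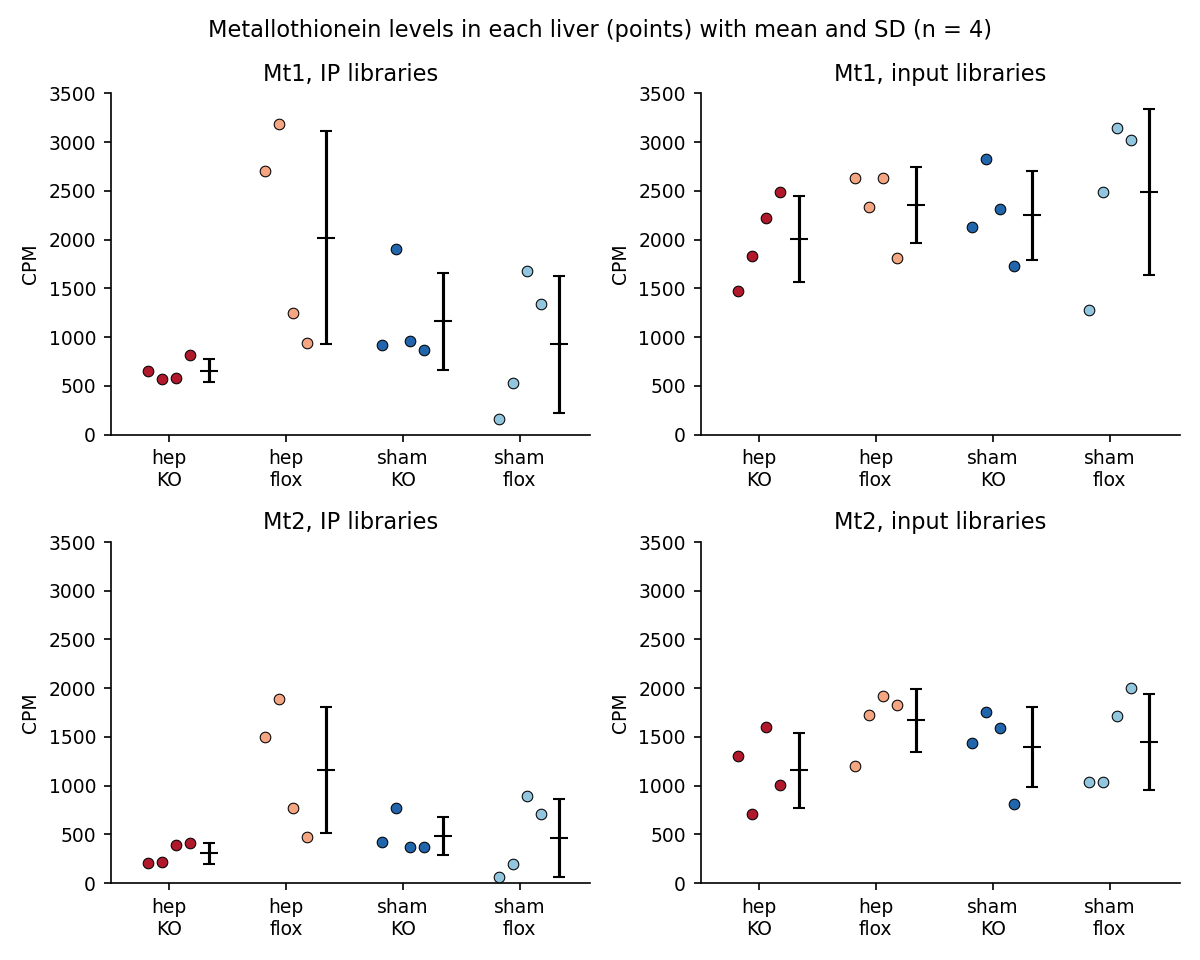
CPM of Mt1 (top) and Mt2 (bottom) in IP (left) and input (right) libraries of the 4 groups (hep, hepatectomy), with a point for each liver and the mean and SD of 4 beside it. The hepatectomy KO points of both genes lie below all hepatectomy flox points in the IP libraries (573 to 822 against 944 to 3186 CPM for Mt1), while the groups overlap in the inputs.

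The m6A-IP libraries of hepatectomised livers separated KO from flox. IP Mt1 was 656, 573, 580.4 and 822 CPM in hepatectomy KO livers, against 2706, 3186, 1247 and 944 CPM in hepatectomy flox livers. IP Mt2 was 206, 222, 394 and 409 CPM in hepatectomy KO livers, against 1501, 1890, 771 and 478 CPM in hepatectomy flox livers. For both genes every KO animal lay below every flox animal, and replicates 1 and 2 of the flox group stood highest. Every KO animal lay below every flox animal for 3.64% of the 14024 genes fitted in IP libraries. The fitted difference was -1.90 (SE 0.51) for Mt1 and -2.20 (SE 0.58) for Mt2. It missed the threshold after adjustment over all genes, with adjusted p = 0.0611 for Mt1 and 0.0509 for Mt2 (edgeR), where 1.48% of genes were called. The median gene of this comparison stood at 0.01, so the relative differences hardly move. The exact 2-sided permutation p was 0.0286 for each gene, the smallest that 4 against 4 animals allow, and 0.267 adjusted over the 56 tests of levels that were run.

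With the edgeR test 0 of 7 genes of the set passed in this comparison, while 5 of 7 had an unadjusted p under 0.05 (Mt1, Mt2, Slc30a1, Slc30a10 and Slc39a14), against 13.3% of all genes. DESeq2 called 4 of 7, where it called 5.76% of all genes, all 4 lower in KO: Mt1 (adjusted p = 0.0155), Mt2 (0.00942), Slc30a1 (0.0472) and Slc30a10 (0.0499). The calls depended on single livers. Without hepatectomy KO replicate 4, the IP library with the lowest total, edgeR called 4 of 7, Mt1, Mt2, Slc30a1 and Slc39a14, and 3.05% of all genes. Without hepatectomy flox replicate 4 it called Mt1 and Mt2, and 0.77% of all genes. The 77-day sham flox animals enter this fit through the estimate of the spread, the filter on low counts and the normalization factors. Without them 16146 genes were fitted rather than 14024. In that fit edgeR called Mt1 (adjusted p = 0.00704) and Mt2 (0.0041), and 1.05% of all genes.

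In sham livers the 2 genotypes overlapped. IP Mt1 was 915, 1901, 959 and 872 CPM in sham KO livers, against 161, 525, 1679 and 1342 CPM in sham flox livers. IP Mt2 was 423, 776, 375.0 and 367 CPM in sham KO livers, against 61, 195, 889 and 710.2 CPM in sham flox livers. The sham flox animals fell into a low and a high pair for both genes: the low pair, replicates 1 and 2, are the 77-day animals, and the high pair were 71 and 73 days old. Age and level cannot be told apart in these 4 animals. The fitted difference was 0.24 (SE 0.50) for Mt1 and -0.03 (SE 0.55) for Mt2, with adjusted p = 1 for both (edgeR), and 0 of 7 genes of the set passed at either an adjusted or an unadjusted 0.05, where 0.0927% of all genes passed the adjusted and 5.7% the unadjusted threshold. DESeq2 called 0 of 7.

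The difference between the surgeries was tested itself. The genotype by surgery interaction in IP libraries was -2.14 (SE 0.71) for Mt1 and -2.17 (SE 0.79) for Mt2, with adjusted p = 0.477 and 0.512 (edgeR; 0.0285% of genes called). Of the 7 genes 0 passed, 2 had an unadjusted p under 0.05, Mt1 and Mt2 (7.89% of all genes), and DESeq2 called 0 of 7. Within a genotype, hepatectomy minus sham was -0.96 (SE 0.50) for Mt1 and -0.80 (SE 0.56) for Mt2 in KO livers (adjusted p = 0.601 and 0.824). It was 1.18 (SE 0.50) for Mt1 and 1.38 (SE 0.56) for Mt2 in flox livers (adjusted p = 0.628 for both). Without the 77-day sham flox animals the flox values were 0.47 and 0.58 (adjusted p = 1 for both), and the interaction was -1.44 and -1.39 (adjusted p = 0.767 and 0.776). Without sham KO replicate 2 the KO values were -0.50 and -0.36. Of the 7 genes 0 passed in KO, where edgeR called 0.627% of genes, with 0 at an unadjusted p under 0.05 (9.51% of genes). In flox 0 passed (0.0285% of genes called), with 2, Mt1 and Mt2, at an unadjusted p under 0.05 (6.92% of genes), and DESeq2 called 0 in either genotype. All 4 hepatectomy KO livers had less IP Mt1 than every sham KO liver (573 to 822 against 872 to 1901 CPM; exact permutation p = 0.0286), an order that 4.35% of genes shared.

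Because each liver gave both libraries, a ratio could be taken within the animal. Log2((IP CPM + 1)/(input CPM + 1)) of Mt1 was -1.17, -1.68, -1.94 and -1.60 in hepatectomy KO livers, against 0.04, 0.45, -1.08 and -0.94 in hepatectomy flox livers. For Mt2 it was -2.65, -1.67, -2.02 and -1.30 in hepatectomy KO livers, against 0.32, 0.13, -1.32 and -1.93 in hepatectomy flox livers. The Mt1 groups did not overlap (exact 2-sided permutation p = 0.0286, adjusted 0.343 over 28 tests of ratios; 3.43% of genes had every KO animal lower), and the Mt2 groups did. In sham livers Mt1 stood at -1.22, -0.58, -1.27 and -0.99 in KO, against -2.99, -2.25, -0.90 and -1.17 in flox, and Mt2 at -1.76, -1.18, -2.08 and -1.14 in KO, against -4.06, -2.40, -0.94 and -1.50 in flox.

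Metallothionein RNA was less abundant in IP than in input libraries of hepatectomy KO livers, the comparison in which both genes passed the test. The fitted IP minus input difference was -1.86 (SE 0.40, adjusted p = 0.00886) for Mt1 and -2.17 (SE 0.49, adjusted p = 0.014) for Mt2 in these livers (edgeR, 14332 genes, n = 4 animals). IP lay below input in 4 of 4 animals for both, as for 3.56% of genes. The hepatocyte markers summed to 32280 to 84870 CPM in these IP libraries and 84710 to 101400 CPM in their inputs, and their part was not tested. These 2 of 7 genes were called where the test called 0.377% of genes, 0.335% lower. DESeq2 called Mt2 alone, and 14.2% of all genes. With Slc39a14, 3 of 7 had an unadjusted p under 0.05, as had 19.9% of all genes. The median gene stood at 0.30, so the differences relative to it were -2.16 and -2.47. The calls of both genes ended with upper-quartile factors (adjusted p = 0.152 for both), with DESeq2 size factors (0.0784 and 0.091) and without replicate 3 or 4 of the group, and that of Mt2 also without replicate 1 or 2.

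In the other 3 groups neither metallothionein passed the edgeR test. In hepatectomy flox livers IP minus input was 0.15 (SE 0.39) for Mt1 and -0.17 (SE 0.47) for Mt2 (adjusted p = 0.934 and 0.945), where 1.21% of genes were called. The median gene stood at 1.28, and at 0.16 among genes of at least 50 CPM, so that relative to them Mt1 lay at -1.13 and -0.01 and Mt2 at -1.45 and -0.33. The sign of the Mt1 value turned under other scalings, as given in the closing section. In sham KO livers the difference was -1.08 (SE 0.39) for Mt1 and -1.67 (SE 0.48) for Mt2 (adjusted p = 0.173 for both; 0.0209% of genes called), and in sham flox livers it was -1.15 (SE 0.39) and -1.37 (SE 0.48) (adjusted p = 0.0818 for both; 0.279% of genes called). Without the 77-day animals the sham flox values were -0.80 and -0.98 (adjusted p = 0.356 and 0.357). IP lay below input in 4 of 4 animals of both sham groups for both genes, as for 1.65% of genes in sham KO and 1.93% in sham flox, and in 2 of 4 hepatectomy flox animals (4 of 4 for 1.67% of genes). At an unadjusted p under 0.05 the count was 1 of 7 in hepatectomy flox (34.9% of genes), 3 of 7 in sham KO (20.5%) and 2 of 7 in sham flox (30.2%). DESeq2 called Slc39a4 in hepatectomy flox (28.8% of all genes called), 0 of 7 in sham KO, and Mt1 and Mt2 in sham flox (24.5%). With the animal as a block, which uses the pairing of an animal's libraries, sham flox Mt1 (-1.57, adjusted p = 0.000575) and Mt2 (-1.95, 0.0069) and sham KO Mt2 (-1.70, 0.0278) passed as well, where this fit called 0.356% of all genes in sham flox and 0.174% in sham KO.

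The IP/input difference between KO and flox after hepatectomy was -2.02 (SE 0.55, adjusted p = 0.0602) for Mt1 and -2.0 (SE 0.67, adjusted p = 0.085) for Mt2 (edgeR), where 0.712% of genes were called and the median gene stood at -0.99. Relative to the median gene the values were -1.02 and -1.01, and relative to the median of genes of at least 50 CPM (-0.23) they were -1.79 and -1.77. With the animal as a block, which called 0.335% of all genes, Mt1 passed (-1.78, adjusted p = 0.0114) and Mt2 did not, and Mt1 passed without the 77-day sham flox animals (-1.83, adjusted p = 0.013). In the main test 0 of 7 genes passed, 3 had an unadjusted p under 0.05 (Mt1, Mt2 and Slc39a4; 21.4% of all genes), and DESeq2 called Slc39a4 alone, and 22.4% of all genes. The interaction of genotype and surgery in IP/input was -2.08 (SE 0.78, adjusted p = 0.145) for Mt1 and -1.70 (SE 0.94, adjusted p = 0.445) for Mt2. In the other 4 IP/input comparisons edgeR called 0 of 7 genes. It called 0.0209% of all genes between KO and flox in sham livers, 0.0349% between hepatectomy and sham in KO, 0.181% in flox and 0.0349% for the interaction. At an unadjusted p under 0.05 Mt1 and Slc39a4 passed in flox (20.5% of genes) and for the interaction (14.4%), where DESeq2 called Slc39a4 with 23.3% and 22.1% of all genes, and 0 of 7 passed in sham livers (14.8%) and in KO (11.9%), where DESeq2 called 0.

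**Figure D2:**
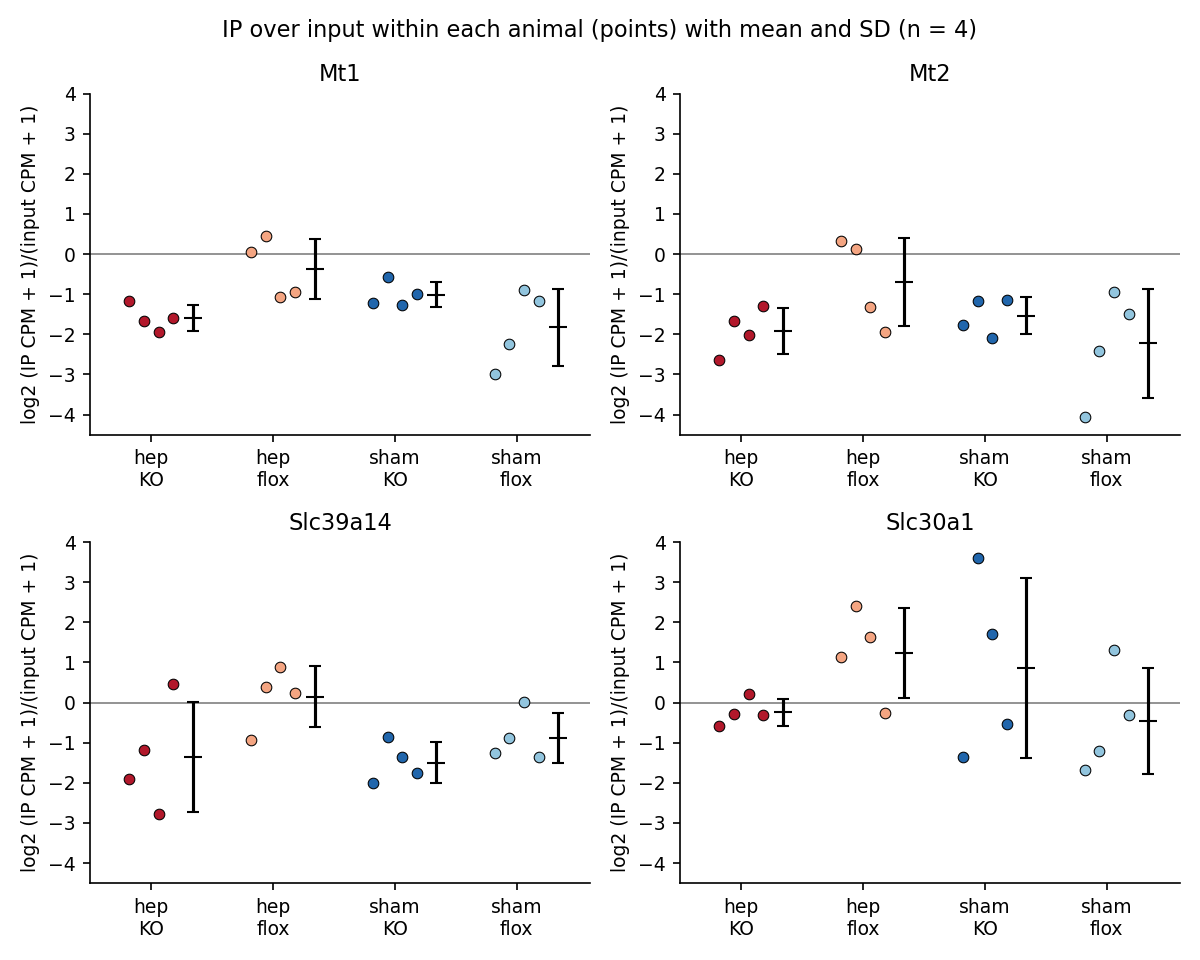
Log2 ratio of IP to input within each animal for Mt1, Mt2, Slc39a14 and Slc30a1, with a point for each animal in the 4 groups (hep, hepatectomy) and the mean and SD of 4 beside it. The 4 hepatectomy KO points of Mt1 (-1.94 to -1.17) lie below the hepatectomy flox points (-1.08 to 0.45), while the groups overlap for the other 3 genes.

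The levels of the 2 metallothioneins were correlated from animal to animal in IP libraries. Over the 16 IP libraries Pearson's r of log2(CPM + 1) was 0.975 and Spearman's rho 0.935 (permutation p = 2e-05 for each, the smallest that 100000 resamples give, adjusted 6e-05 over 3 relations). It was 0.942 without the 2 livers farthest from the median and 0.968 after removal of group means. Over the 16 inputs r was 0.5 (p = 0.0566) and rho 0.521 (p = 0.0416, permutation tests), with r = 0.528 without the 2 farthest livers. For the log2 ratio within animals r was 0.881 and rho 0.768 (permutation p = 0.0001 and 0.00082, adjusted 0.00015 and 0.00123), with r = 0.735 without the 2 farthest animals. The Mt1 to Mt2 ratio of CPM was 1.47 to 3.18 in IP libraries and 0.993 to 2.59 in inputs. Of Mt2's counts, the antisense gene ENSMUSG00000110588, which overlaps it, had 1.16% in IP and 0.46% in input libraries. The labels do not name the strand setting of the counting, so reads of the 2 could not be told apart if strand was not used.

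Among 2680 named genes of at least 50 CPM, with the 7 genes themselves left out, those with the most similar ranks to Mt1 over the 16 IP libraries were Fgb, a fibrinogen chain (Spearman's rho 0.915), Hp, haptoglobin (0.879) and the protease inhibitor Serpina3n (0.879). For Mt2 they were Steap4, a metalloreductase (0.915), Serpina3n (0.9) and Hp (0.85). Over the 16 inputs, among 2580 genes, they were Lrg1 (0.824), Pcsk6 (0.788) and Atxn7l3b (0.762) for Mt1, and Cyp2c29 (0.9), Lpgat1 (0.741) and St3gal5 (0.738) for Mt2. No gene was on both lists of a metallothionein. Libraries share their depth and makeup across genes, so these values are descriptions.

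Slc39a14 (ENSMUSG00000022094, chromosome 14, 70303469 to 70351425, minus strand), the importer of zinc, manganese and iron that liver uses in the acute phase, had the highest level per kb of the 14 Slc39 genes in the inputs. IP Slc39a14 was 94.6, 119, 76.6 and 539 CPM in hepatectomy KO livers, against 409, 491, 438 and 474 CPM in hepatectomy flox livers. Of the KO livers 3 were far below the flox range and replicate 4 was above it. The fitted difference was -1.40 (SE 0.51, adjusted p = 0.203, edgeR). Without KO replicate 4 it was -2.50 (adjusted p = 0.00082), and DESeq2 gave no adjusted p for this gene. In sham livers IP Slc39a14 was 139 to 365 CPM in KO, against 111 to 371 CPM in flox. All 4 hepatectomy flox livers were above all sham flox livers in IP (exact permutation p = 0.0286; fitted 0.69, SE 0.50, adjusted p = 1), as for 2.46% of genes. Input Slc39a14 averaged 389 ± 111 CPM in hepatectomy KO, 446 ± 230 in hepatectomy flox, 611 ± 165 in sham KO and 535 ± 263 in sham flox, and the groups compared overlapped.

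IP minus input of Slc39a14 was -1.19 (SE 0.57, adjusted p = 0.232) in hepatectomy KO livers, 0.39 (SE 0.57, adjusted p = 0.815) in hepatectomy flox, -1.54 (SE 0.58, adjusted p = 0.173) in sham KO and -0.60 (SE 0.57, adjusted p = 0.634) in sham flox. The log2 ratio within animals was below 0 in 3 of 4 hepatectomy KO, 1 of 4 hepatectomy flox, 4 of 4 sham KO and 3 of 4 sham flox livers. The difference in IP/input between KO and flox after hepatectomy was -1.58 (SE 0.81, adjusted p = 0.25). Without hepatectomy KO replicate 4 the IP minus input value in that group was -1.99 and the IP/input difference -2.36, and without replicate 3 they were -0.59 and -0.99.

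Slc39a4 (ENSMUSG00000063354, chromosome 15, 76612383 to 76617384, minus strand), the importer of the intestine that takes up dietary zinc, was at or near 0 in many of the inputs. Its input values were 1.06, 120.2, 3.11 and 82.7 CPM in hepatectomy KO livers, against 0 in all 4 hepatectomy flox livers. They were 28.7, 0.267, 1.77 and 115 CPM in sham KO livers, against 29.1, 0, 0 and 82.6 CPM in sham flox livers. High and near-absent libraries occurred in each of 3 groups. Summed over the group, the hepatectomy KO inputs held 2357 counts, against 0 in the hepatectomy flox inputs, at least 779.5-fold higher at a floor of 3 counts over the group, and nearly all of these came from replicates 2 and 4. The groups did not overlap (exact permutation p = 0.0286), with every KO animal higher for 3.83% of genes, and the edgeR test gave adjusted p = 0.282. Every hepatectomy KO input held more genes of at least 10 counts (5972 to 8273) than every hepatectomy flox input (4460 to 4948). The median gene of this comparison stood at 0.46. The part of this in the Slc39a4 difference was not tested.

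In the IP libraries the coefficient of variation within a group had a median of 71%, against 139% in the inputs. IP Slc39a4 was 68.7, 74.3, 31.4 and 85.9 CPM in hepatectomy KO livers, against 62.9, 8.99, 23.4 and 15.2 CPM in hepatectomy flox livers. The groups overlapped through flox replicate 1, and the fitted difference was 0.95 (SE 0.93, adjusted p = 0.821). Of the 7 genes it was the one with a higher fitted IP level in KO than in flox livers after hepatectomy. In hepatectomy flox livers the 1704 IP counts against 0 input counts made IP at least 425.8-fold higher than input at that floor, a call with adjusted p = 0.0348 (edgeR, which called 1.21% of genes higher there). This call ended with upper-quartile factors (0.0701), with the animal as a block (0.0823) and without any 1 of the 4 animals (0.084 to 0.119).

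**Figure D3:**
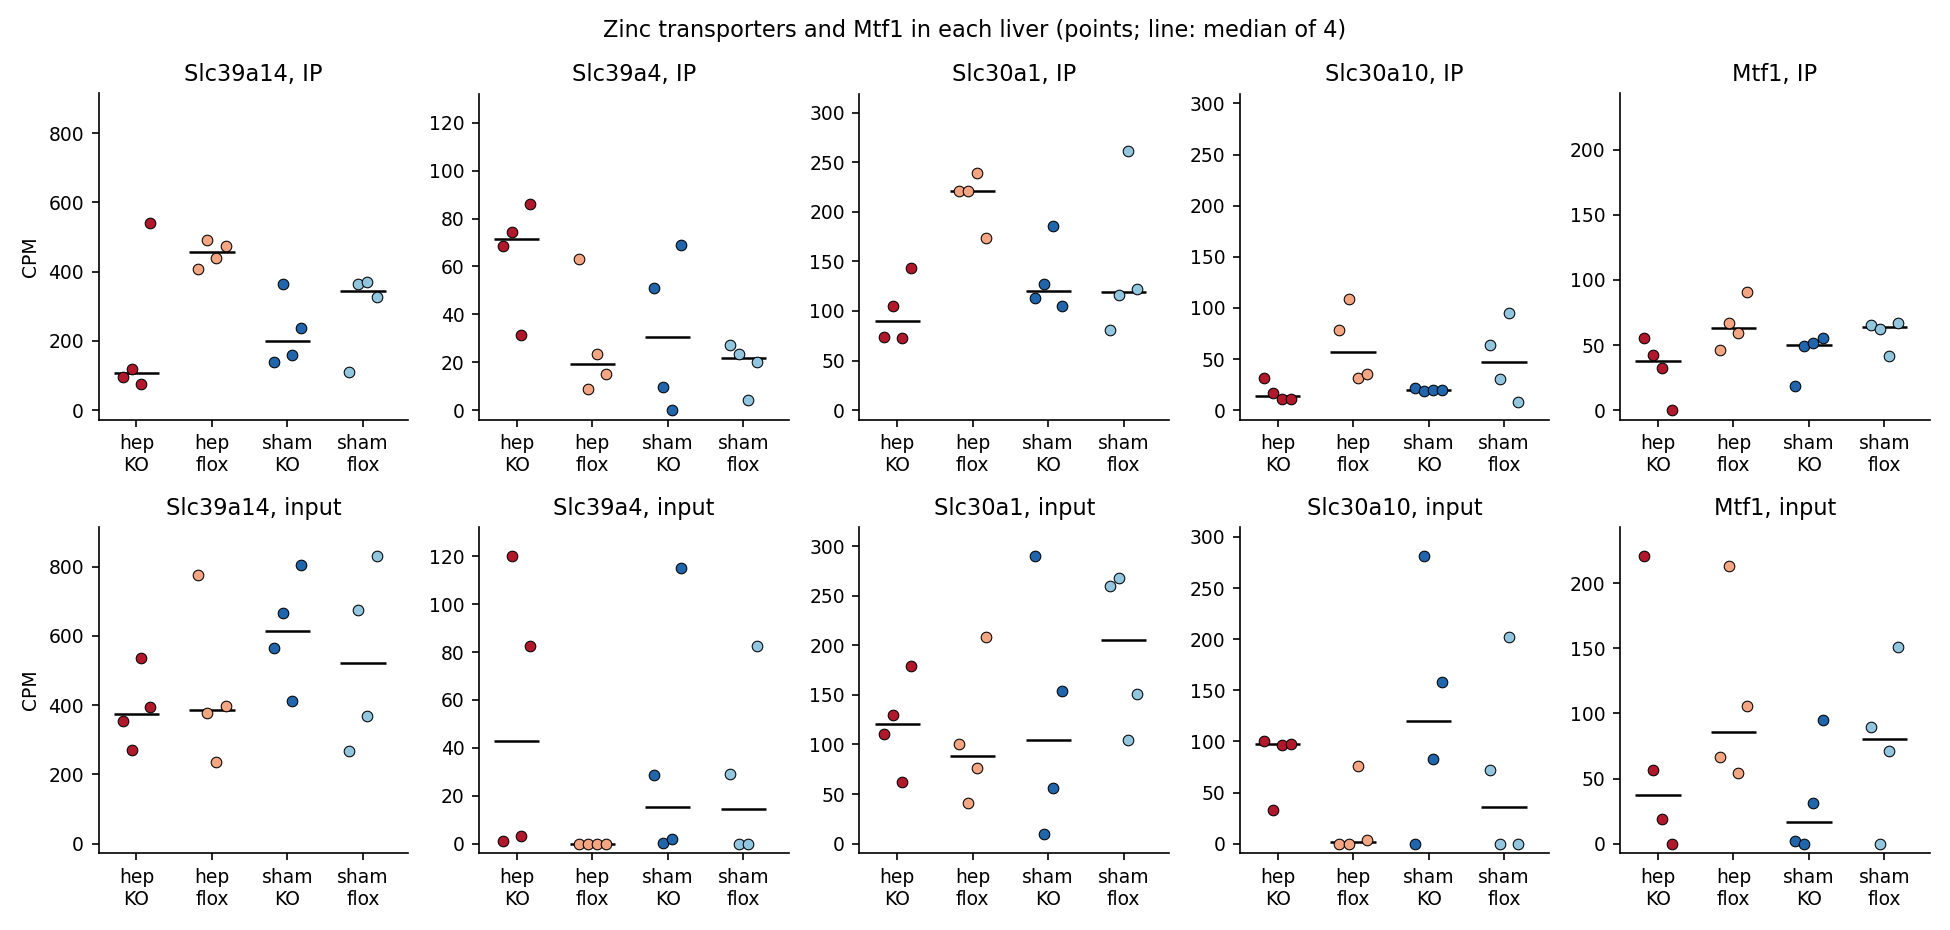
CPM of Slc39a14, Slc39a4, Slc30a1, Slc30a10 and Mtf1 in IP (top) and input (bottom) libraries, with a point for each liver, a line at the median of 4 and the same axis for both kinds of library of a gene (hep, hepatectomy). IP Slc30a1 is 73.2 to 143 CPM in hepatectomy KO and 174 to 239 CPM in hepatectomy flox livers, and the inputs of Slc39a4, Slc30a10 and Mtf1 include libraries at or near 0.

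Slc30a1 (ENSMUSG00000037434, chromosome 1, 191906767 to 191913247, plus strand) encodes ZnT1, the zinc exporter of the plasma membrane and a target of MTF1. IP Slc30a1 was 73.4, 105.5, 73.2 and 143 CPM in hepatectomy KO livers, against 220.5, 220.8, 239 and 174 CPM in hepatectomy flox livers. Every KO animal lay below every flox animal (exact permutation p = 0.0286, adjusted 0.267 over 56 tests). This order held for 3.64% of the genes fitted in IP libraries. The fitted difference was -1.39 (SE 0.41), with adjusted p = 0.0911 (edgeR). In sham livers it was 105 to 186 CPM in KO, against 80.4 to 261 CPM in flox, and the fitted difference was -0.25 (SE 0.40, adjusted p = 1). The interaction was -1.13 (SE 0.57, adjusted p = 0.652).

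Input Slc30a1 averaged 121 ± 48.2 CPM in hepatectomy KO livers, 106 ± 72.1 in hepatectomy flox, 127 ± 124 in sham KO and 196 ± 81.0 in sham flox. The fitted KO minus flox difference after hepatectomy was 0.35 (SE 1.15, adjusted p = 1). The log2 IP/input ratio within animals was -0.59, -0.30, 0.22 and -0.32 in hepatectomy KO livers, against 1.13, 2.40, 1.64 and -0.26 in hepatectomy flox livers. The groups overlapped by 1 flox animal (exact permutation p = 0.0571, adjusted 0.343). The fitted IP/input difference was -1.86 (SE 1.19, adjusted p = 0.431).

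Slc30a10 (ENSMUSG00000026614, chromosome 1, 185454848 to 185468762, plus strand) belongs to the zinc exporter family, and in people and mice its protein is known chiefly as the exporter of manganese from liver and gut. IP Slc30a10 was 31.3, 16.5, 11.3 and 10.8 CPM in hepatectomy KO livers, against 78.2, 109, 31.2 and 35.4 CPM in hepatectomy flox livers. The groups touched at KO replicate 1 and flox replicate 3 (31.27 and 31.22 CPM; exact permutation p = 0.0571). The fitted difference was -2.13 (SE 0.73, adjusted p = 0.172, edgeR). In sham livers it was 18.9 to 22.2 CPM in KO, against 8.42 to 95.0 CPM in flox (fitted -1.45, SE 0.71, adjusted p = 0.891).

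The inputs of Slc30a10 ran the other way in hepatectomised livers: 101, 33.0, 96.7 and 97.9 CPM in KO, against 0, 0, 75.6 and 3.43 CPM in flox. The fitted difference of 2.29 (SE 2.01, adjusted p = 0.989) was close to its standard error. The hepatectomy KO inputs also held more genes of at least 10 counts than the hepatectomy flox inputs, and the part of this was not tested. In sham livers the inputs were 0.0885, 282, 82.4 and 158 CPM in KO, against 71.6, 0, 202 and 0 CPM in flox. Jumps between near 0 and over 50 CPM within a group were common to the inputs of Slc30a10, Slc39a4 and Mtf1. The antisense gene Gm2061, which overlaps Slc30a10, had 6.12% of its counts in inputs and more than it (208.31%) in 1 library.

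Mtf1 (ENSMUSG00000028890, chromosome 4, 124802104 to 124849800, plus strand), the zinc-sensing transcription factor, passed no test between groups. IP Mtf1 was 55.7, 42.8, 32.1 and 0 CPM in hepatectomy KO livers, against 46.3, 67.1, 59.0 and 90.6 CPM in hepatectomy flox livers. The 0 was in replicate 4, the library with the lowest total. The fitted difference was -1.27 (SE 0.82, adjusted p = 0.611, edgeR; exact permutation p = 0.0571). In sham livers IP Mtf1 was 18.6 to 55.7 CPM in KO, against 41.9 to 66.6 CPM in flox. Its inputs ranged over 0.0798 to 221 CPM in hepatectomy KO, 54.3 to 213 in hepatectomy flox, 0.0889 to 94.6 in sham KO and 0 to 151 in sham flox. The antisense gene ENSMUSG00000078570 inside its span had 13.88% of its counts in IP libraries and 41.73% in 1 of them, and 0 in inputs.

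**Figure D4:**
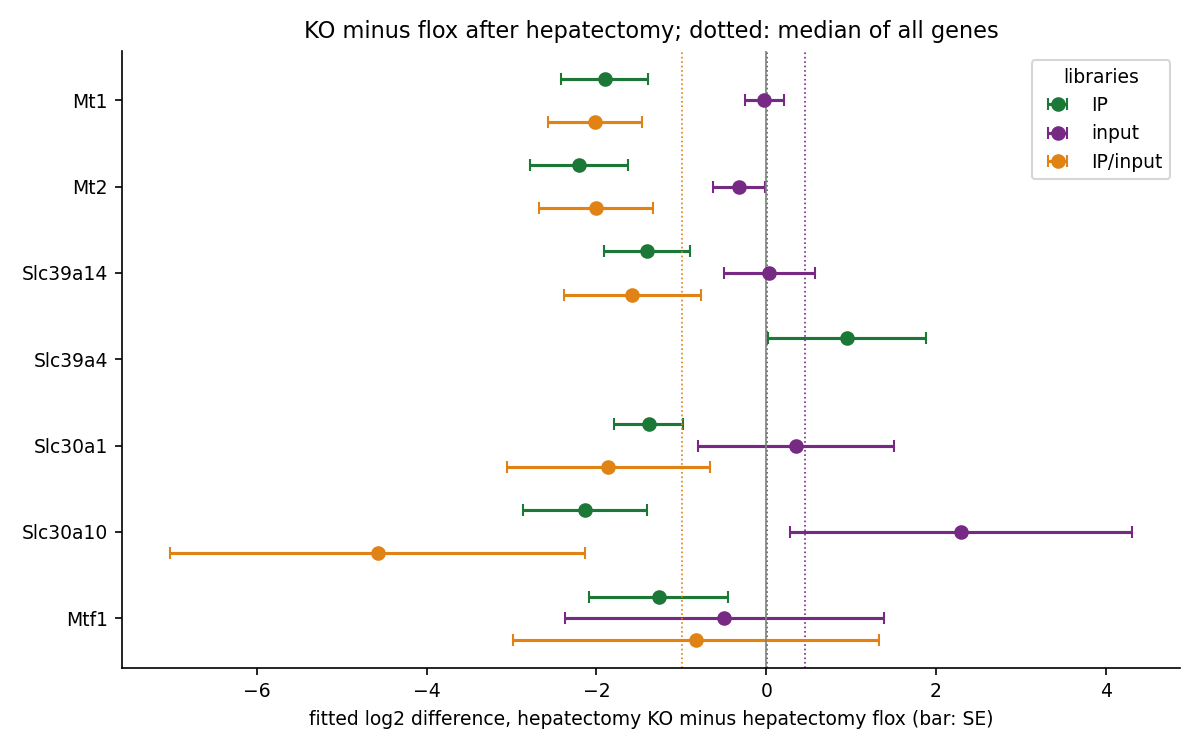
Fitted log2 difference between hepatectomy KO and hepatectomy flox livers for the 7 genes in IP libraries, inputs and IP/input, with the SE as a bar and the median of all genes as a dotted line of the same colour. In IP 6 of 7 genes lie below 0 (-2.20 to -1.27) and Slc39a4 at 0.95; its input and IP/input values are left out because the flox inputs were at 0.

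By role, after hepatectomy, the fitted IP difference between KO and flox lay below 0 for both metallothioneins, both exporters, Mtf1 and the importer Slc39a14, and above 0 for Slc39a4. The median of the 7 was -1.40, against 0.01 for the 14024 genes fitted. In the inputs 3 of the 7 fitted differences were below 0 (Mt1 at -0.02, Mt2 at -0.32 and Mtf1 at -0.49). The median gene stood at 0.46 there.

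The wider families were read from lists that include the genes above. Of the 14 Slc39 genes 11 were tested in IP libraries and 0 passed between KO and flox after hepatectomy by edgeR, with 7 below 0 and a median of -0.27. At an unadjusted p under 0.05 there were 2, Slc39a14 and Slc39a9, and DESeq2 called 0. Of the 10 Slc30 genes 7 were tested and 0 passed, with 6 below 0 and a median of -0.64. At an unadjusted p under 0.05 there were 2, Slc30a1 and Slc30a10, which DESeq2 called. Of all genes in this comparison, 13.3% had an unadjusted p under 0.05, edgeR called 1.48% and DESeq2 5.76%. Per kb, Slc39a14 (46.9), Slc39a7 (27.7) and Slc39a1 (21.2 CPM per kb) led the importers in the inputs, and Slc30a1 (26.2), Slc30a10 (11.6) and Slc30a4 (7.47 CPM per kb) the exporters. Slc39a7 releases zinc from the endoplasmic reticulum, Slc39a1 works at the plasma membrane, and Slc30a4 moves zinc into vesicles. Slc39a2, Slc39a3 and Slc39a5 had 0 counts in all 16 inputs, as had Slc30a2 and Slc30a3. Slc39a3 averaged 7.56 CPM in the IP libraries all the same.

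**Figure D5:**
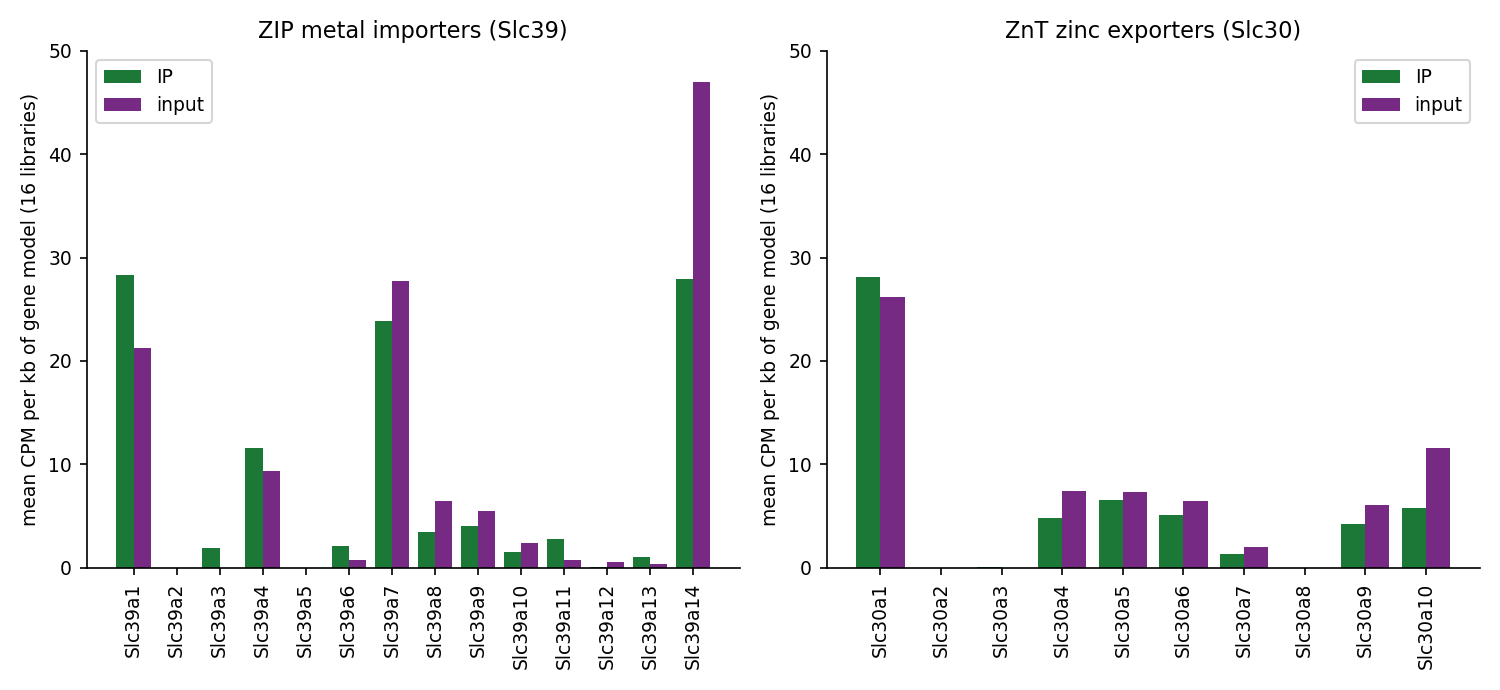
Mean level of each Slc39 (left) and Slc30 (right) gene over the 16 IP and the 16 input libraries, in CPM per kb of the gene model, with the axis starting at 0. Slc39a14 (46.9) and Slc30a1 (26.2 CPM per kb) are the highest bars of their families in the inputs.

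Lists of related pathways give the setting of the IP difference between KO and flox after hepatectomy, in which 0.342% of genes rose and 1.13% fell. The lists were chosen with earlier results of these data known, so their counts are descriptions and no test of a pathway. Of 20 genes induced in liver by interleukin 6 and STAT3, 7 fell and 0 rose, with a median of -1.31. They included the fibrinogen chain Fga (-1.99, SE 0.34, adjusted p = 0.00173), the interleukin 6 receptor Il6ra (-2.09, adjusted p = 0.00347), Steap4 (-2.26, adjusted p = 0.00962) and Fgb (-1.53, adjusted p = 0.00981). Fgb, Hp and Steap4 are also named above for their ranks. Fgb is also among the hepatocyte markers, whose sum was lower in these KO IP libraries, and the part of this was not tested. IP Hp averaged 3542 ± 2520 CPM in hepatectomy KO livers and 12870 ± 4375 in hepatectomy flox livers (-2.15, SE 0.46, adjusted p = 0.0122). Of 11 glucocorticoid-induced genes tested, 3 fell and 0 rose, with a median of -1.17: Angptl4, an inhibitor of lipoprotein lipase (-1.63, adjusted p = 0.0164), Pck1, of gluconeogenesis (-1.59, adjusted p = 0.0249) and Errfi1, an inhibitor of the EGF receptor (-1.35, adjusted p = 0.0482). At an unadjusted p under 0.05 there were 11 interleukin 6 and 6 glucocorticoid genes, against 13.3% of all genes. DESeq2 called 8 and 4, against 5.76%. In the inputs edgeR called 0 genes of either list between KO and flox after hepatectomy, where it called 0.0342% of genes. The list medians there were -0.11 and -0.04, against 0.46 for all genes. An unadjusted p under 0.05 there held for 2 and 0 genes (14% of all genes), and DESeq2 called 2 and 0 (12%).

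Of the other genes regulated by MTF1, 5 were tested and Cebpa, a transcription factor of hepatocytes, fell: 269 ± 222 CPM in hepatectomy KO livers and 988 ± 309 in hepatectomy flox livers (-2.14, SE 0.42, adjusted p = 0.00614), with a list median of -0.53. Of 10 copper-handling genes (median 0.23) 0 passed by edgeR, while 1, the copper importer Slc31a1, had an unadjusted p under 0.05 and was called by DESeq2. Of 8 genes of manganese and iron transport (median 0.04) 0 passed by edgeR and 3 had an unadjusted p under 0.05 (Hjv, Slc11a2 and Tfr2). Of these 3 DESeq2 called the iron importer Slc11a2. For both lists the shares of all genes were 13.3% at an unadjusted p under 0.05 and 5.76% by DESeq2. In IP minus input of hepatectomy KO livers 9 of the 20 interleukin 6 genes fell, against 0.335% of all genes, among them Fga (-1.53, SE 0.20, adjusted p = 1.38e-06), Fgb (-1.44), Hp (-1.93) and Steap4 (-2.69). The metallothioneins are themselves induced by interleukin 6 and glucocorticoids, and the lists were not compared with them by a test.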

How the data were processed

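Livers of 16 mice gave 16 IP and 16 input libraries. The authors deposited expected counts per gene, which are estimated counts not scaled between libraries, made from reads processed with fastp and STAR per the submitters' processing notes. Per the labels' protocols the input used TruSeq Stranded mRNA and the IP used fragmented total RNA with NEBNext Ultra RNA. Genome build, annotation, counting tool and strand setting were not given in the sources used here. Of the values, 1.9 to 8.22% were not whole in IP libraries and 1.33 to 2.81% in inputs, and all were rounded before testing.

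The table has no symbols. Genes were named by matching their position, without use of the strand, to RefSeq genes on GRCm38.p6. This named 34005 of 55421 genes, holding 92.6% of counts. After a shift of 1000000 bases 713 were named by the same rule. All 7 genes of the set and 82 of 83 genes of the 8 lists were found.

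Counts were tested with edgeR 4.0.16 in R 4.3.3 (quasi-likelihood test, TMM factors, filterByExpr with a minimum count of 10, a coefficient for each group) over input, IP or all libraries, with Benjamini-Hochberg adjustment over all genes and a threshold of 0.05 in 19 comparisons. DESeq2 1.42.0 was an alternative. The tests were checked on simulated data. Single genes were also compared by exact 2-sided permutation of log2(CPM + 1) or of log2((IP CPM + 1)/(input CPM + 1)). CPM used library totals without TMM factors. Other normalizations, filters and pseudocounts, an animal or replicate block and leaving out each animal were tried.

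The genes named were the 7, up to 4 genes with the smallest p among those called in each list, and the 3 genes most similar in rank to Mt1 and to Mt2. Levels of the families and values of listed genes given as background were added to these. The genes, lists and promoter motif were chosen with earlier results of these data known. Input and IP libraries of an animal are paired by the code that their descriptions share, which follows the replicate numbers. Over 2329 genes the correlation of their deviations from group means was -0.028 to 0.105 (median 0.027), and 8 of 16 inputs correlated best with the IP library of their own animal. Between groups the replicate numbers only number the animals.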

Additional observations from a re-analysis of the deposited data

Results flagged for a closer look

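In 7 of 84 sets of 4 values (7 genes, 4 groups, and IP level, input level and log2 IP/input), 1 animal lay far from the other 3 by Dixon's criterion, which chance meets in about 1 of 20 sets. IP Mt1 was 1901 CPM and IP Mt2 775.8 CPM in sham KO replicate 2, both above the other 3 sham KO livers. IP Slc39a14 was 539.1 CPM in hepatectomy KO replicate 4, above the other 3 KO livers. Input Slc30a10 was 33.03 CPM in hepatectomy KO replicate 2, below the others, and 75.63 CPM in hepatectomy flox replicate 3, above them. IP Mtf1 was 41.87 CPM in sham flox replicate 3, below the others. The log2 IP/input of Mtf1 was 5.99 in sham flox replicate 2, whose input held no Mtf1 counts.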

How the results depend on the processing

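Of the 7 genes, 0 were called between hepatectomy KO and flox IP libraries, against 2 with upper-quartile factors, with a mean of at least 50 CPM, without the 77-day sham flox animals or with only the libraries compared, 3 with no filter on low counts, 4 with DESeq2, and 0 to 4 with an animal left out. Of all genes in this comparison, the main fit called 1.48%, DESeq2 5.76% and the fit without the 77-day animals 1.05%. Without hepatectomy KO replicate 4 it was 3.05%, and without hepatectomy flox replicate 4 0.77%. Some further shares, for DESeq2 and the block, stand with the results above. For the remaining settings no share of all genes is given here, so their counts are not read as a result about the 7 genes. Hepatectomy minus sham in IP gave 0, against 1 in KO and 2 in flox with no filter, as did the IP interaction (2). IP/input between KO and flox after hepatectomy gave 0, against 1 with no filter, DESeq2, the animal as replicate block or without the 77-day animals, and 2 with only the libraries compared. DESeq2 called 1 in IP/input of hepatectomy against sham in flox and in its interaction, and 1 in input KO minus flox after hepatectomy, input hepatectomy minus sham in flox and the input interaction, where edgeR called 0. IP minus input in hepatectomy KO livers gave 2, against 0 with upper-quartile factors or DESeq2 size factors, 1 with DESeq2, and 0 to 1 with an animal left out. In hepatectomy flox livers it gave 1, against 0 with upper-quartile factors, the 50 CPM filter (which leaves Slc39a4 untested), the replicate block, and each animal left out. In sham KO livers it gave 0, against 1 with the block, and in sham flox livers 0, against 2 with DESeq2 or the block. Of the 28 tests of per-animal ratios, 1 had groups that did not overlap, against 2 at a pseudocount of 0.1 CPM, 3 with TMM-scaled library sizes and 1 to 3 with an animal left out, where fewer animals overlap less easily. The share of all genes without overlap is not given for these other settings, so their counts are not read as a result about the 7 genes.

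The sign turned for small values. IP minus input of Mt1 in hepatectomy flox livers was 0.15, against -0.73 with upper-quartile factors, -0.23 with DESeq2 size factors and with DESeq2, -0.22 with no factors, -0.0743 with no filter, -0.0727 with the 50 CPM filter, -0.0355 with the replicate block, and -0.14 to 0.37 with an animal left out. Mt2 there ranged from -0.59 to 0.16 with an animal left out. Input Mt1 between hepatectomy KO and flox was -0.02, against 0.0228 with no filter and -0.10 to 0.11 with an animal left out. The cause was not tested. Of the other values of single genes 440 kept direction and side of the threshold, 35 newly passed and 17 no longer passed. Inputs in which Slc39a4, Slc30a10 or Mtf1 had 0 counts allow up to 0.243 to 0.294 CPM, while other inputs of similar totals held up to 120.2 CPM of Slc39a4, 282 CPM of Slc30a10 and 221 CPM of Mtf1, and the cause was not tested.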
